A study of Mus musculus with 2 samples.

Results

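The 9 genes described here encode enzymes that cut extracellular matrix or cell-surface proteins, their inhibitors and a receptor that holds one of the enzymes at the membrane: Mmp2, Mmp14, Timp1, Timp2, Timp3, Plau, Plaur, Adam17 and St14. They were taken by symbol from the 55361 features of both expression matrices, and all 9 were found. Each was followed along the levels of Epcam, which encodes an epithelial adhesion molecule, and of Vim, which encodes the mesenchymal filament protein vimentin, and by the UMIs of Prrx1, which encodes a mesenchymal transcription factor. Epcam, Vim and Prrx1 define the groups and are not results.

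The study sequenced single pancreatic ductal adenocarcinoma cells of KPFRR mice, which carry Trp53frt/frt together with Pdx1-Flp, and also Rosa26mTmG and Rosa26FSF-creER. The Pdx1 promoter restricts Flp to the pancreatic lineage, where it removes Trp53, and both groups share this genotype. One library, called whole tumour, is labelled as the whole population, and the other, CD9hi, as sorted for high CD9, a tetraspanin. The labels name a sort of viable cells by GFP or by CD9, and which of these each library passed beyond its name, the number of mice, their age and whether mice were pooled are not given in the sources used here. With 1 library per group there is no replicate, so no difference below has a test against spread between tumours, and each interval covers counting error only.

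Matrix metalloproteinases are made as inactive precursors. The membrane-bound Mmp14 product activates pro-Mmp2 in a complex that needs Timp2, whereas tissue inhibitors of metalloproteinases block the active enzymes, and Timp3, which binds to matrix, also blocks Adam17. Plau encodes urokinase, which turns plasminogen into plasmin while bound to its receptor, the product of Plaur; Adam17 encodes the sheddase that releases tumour necrosis factor and epidermal growth factor ligands; and St14 encodes matriptase, an epithelial membrane serine protease held in check by the Spint1 and Spint2 products. Of these genes, Mmp2 is known in pancreatic cancer chiefly from stromal fibroblasts.

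Promoter sequence is shown for 3 members whose levels followed different patterns below: Timp1, which went with Vim, Timp3, which did so in few barcodes, and Plaur, which was lower with Prrx1. Each run is 5′ to 3′ on the gene's strand, from RefSeq on GRCm38.p6, a different build from the GRCm39 of the counts. The Timp1 and Plaur runs are the 250 bases before the start site, whereas the Timp3 run is the first 210 of those 250 and stops short of the start. Capitals mark matches to the motifs searched that lie within the printed run; a GC box of Timp3 at 15 bases before the start lies outside it. They lie at chrX:20869916-20870165 (plus strand) for Timp1, chr10:86300162-86300371 (plus strand) for Timp3 and chr7:24462233-24462482 (plus strand) for Plaur.
Timp1: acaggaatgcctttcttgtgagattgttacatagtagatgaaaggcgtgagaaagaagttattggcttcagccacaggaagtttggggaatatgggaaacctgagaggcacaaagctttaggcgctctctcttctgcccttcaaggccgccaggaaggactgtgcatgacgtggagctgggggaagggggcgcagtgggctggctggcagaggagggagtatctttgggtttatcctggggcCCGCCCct
Timp3: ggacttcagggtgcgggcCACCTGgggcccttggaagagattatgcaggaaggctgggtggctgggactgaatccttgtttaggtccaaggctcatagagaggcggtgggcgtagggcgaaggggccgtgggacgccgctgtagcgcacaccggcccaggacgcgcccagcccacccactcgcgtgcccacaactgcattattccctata
Plaur: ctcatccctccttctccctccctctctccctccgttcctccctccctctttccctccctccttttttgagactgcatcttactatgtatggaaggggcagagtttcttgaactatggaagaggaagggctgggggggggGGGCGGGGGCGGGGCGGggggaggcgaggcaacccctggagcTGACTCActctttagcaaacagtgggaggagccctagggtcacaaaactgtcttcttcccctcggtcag
The motifs were the AP-1 site TGANTCA, the E-box CACCTG, the GC box GGGCGG and the TATA box TATAAA, read on both strands in the 250 bases before the start. An AP-1 match was present in 1 of the 6 members with a promoter, Plaur, at 69 bases before the start, against 6.75% of 32851 promoters. The E-box was in 2 of 6 (Timp2 and Timp3) against 17.2%, the GC box in 6 of 6 against 32.7%, and the TATA box in 0 of 6 against 12.4%. The table held no entry for Mmp2, Plau and St14. A match describes letters and is not evidence that a factor binds there.

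The whole-tumour library held 3082 barcodes and 48287984 UMIs, of which 2550 barcodes were kept: those with 500 or more genes, 1000 or more UMIs and no more than 20% of UMIs from mitochondrial genes. The CD9hi library held 5500 barcodes and 120451299 UMIs, with 5092 kept. Median depth was 17686 and 21791.5 UMIs per kept barcode, and 2 barcode sequences occurred in both libraries. Of the ductal epithelial markers, Krt8 had a UMI in 97.8% of kept whole-tumour and 96.0% of kept CD9hi barcodes, and Krt18 in 98.7% and 97.0%. The shares were 84.9% and 58.3% for Krt19, 89.0% and 67.3% for Krt7 and 93.9% and 74.3% for Epcam. They were 82.8% and 65.0% for Cdh1, 77.5% and 53.5% for Cldn4 and, higher in CD9hi, 78.2% and 85.6% for Sox9. Whole tumour also held 380 barcodes with at least 5% of UMIs from acinar enzymes (4 in CD9hi), and 366 of these lay among its 1773 barcodes with Vim under 500 UMIs per 1000000 UMIs of the barcode (CPM). Barcodes with at least 0.5% of UMIs from fibroblast markers numbered 2 and 7, with at least 0.1% from immune markers 5 and 29, and with at least 0.1% from endothelial markers 0 and 3.

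Levels are CPM, UMIs per 1000000, of the UMIs summed over a group of barcodes, and a member was called higher or lower in a comparison at a ratio of at least 1.5-fold with a mean CPM of at least 5. Between the libraries, 7 of 9 members were higher in CD9hi, where 17.1% of 9760 measured genes were higher, and 1 of 9, St14, was lower, against 13.4%. The member median log2 ratio was 0.84 and that of all measured genes 0.13. When only barcodes with Vim of at least 2000 CPM and Epcam under 1000 CPM were compared (3046 in CD9hi, 294 in whole tumour), 1 member, Mmp2, was higher against 9.93% of genes, and 1, St14, was lower against 9.28%. The 3 inhibitors, which differed by up to 4.07-fold between whole libraries, then differed by less than 1.25-fold between the libraries. Mmp14 lay just under the call there and passed it under 5 alternatives (log2 0.59 to 0.65).

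Within the libraries, barcodes with Vim of at least 2000 CPM were compared with those under 500 CPM. In whole tumour 7 of 8 measured members were higher in the Vim-high group (20.3% of genes) and 1 was lower (13.6%); Mmp2, with 28 and 5 UMIs, was under the mean level there and in the Epcam comparison. In CD9hi 4 of 9 were higher (8.81%) and 1 was lower (16.8%). Between Epcam of at least 2000 CPM and under 1000 CPM, 3 of 8 members were higher in whole tumour (32.6% of genes) and 3 were lower (3.86%), while in CD9hi 2 of 9 were higher (14.6%) and 4 were lower (10.1%). With at least 2 Prrx1 UMIs against 0 in CD9hi, 1 of 9 was higher (16.6%) and 2 were lower (14.7%). These comparisons share barcodes and are not independent of each other.

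**Figure D1:**
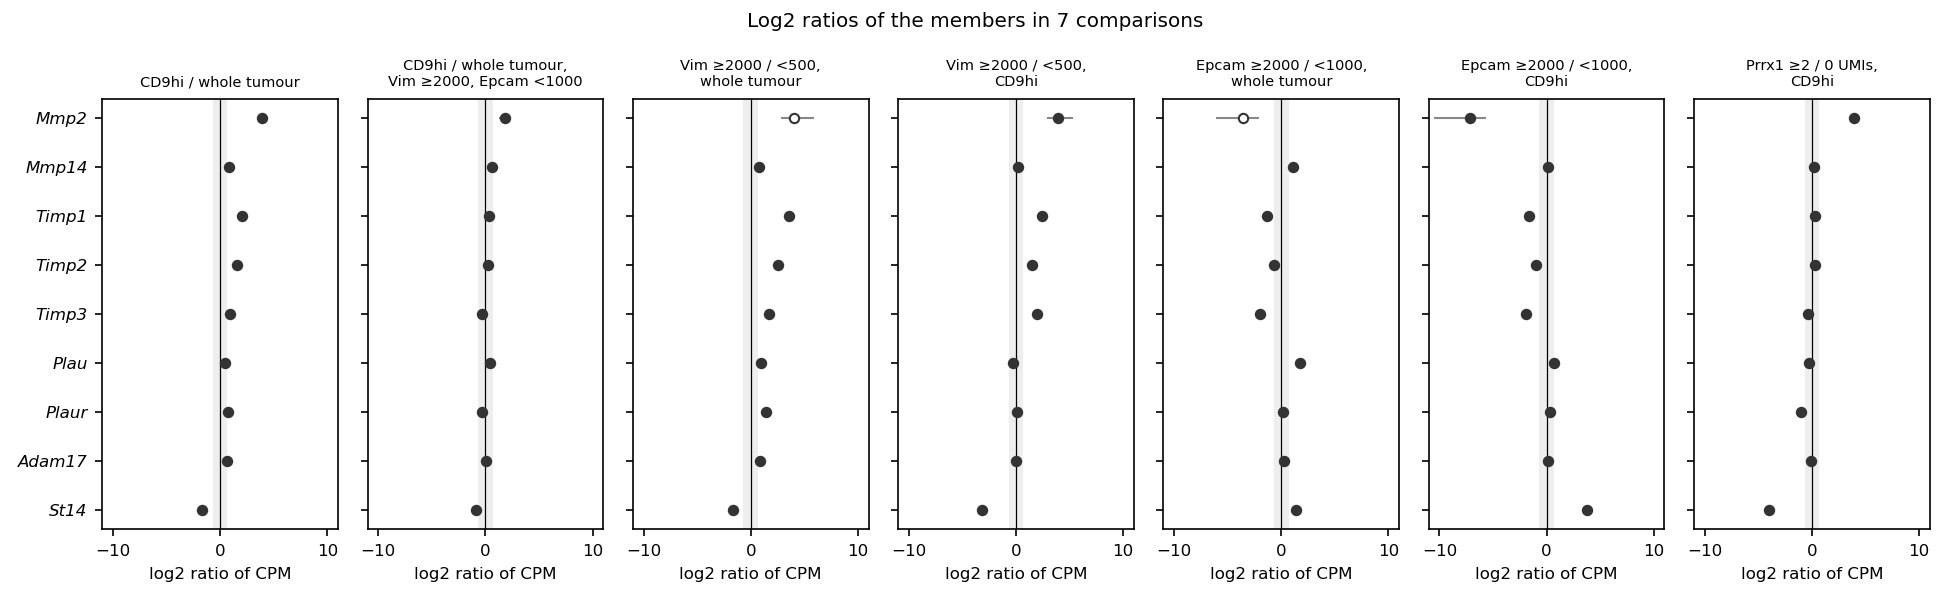
Log2 ratio of CPM (x axis) for the 9 genes (y axis) in 7 comparisons, with 95% counting intervals as bars; filled points had a mean CPM of at least 5, open points did not, and the grey band marks ratios under 1.5-fold. St14 lies on the opposite side from Timp1, Timp2 and Timp3 in the Vim and Epcam panels, and Mmp2 has the largest positive ratio in the Prrx1 panel, 3.94.

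Mmp2, the gelatinase, was found almost only in the CD9hi library and there in few barcodes. It reached 11.7 CPM (1399 UMIs) in the former and 0.756 CPM (35 UMIs) in whole tumour, a log2 ratio of 3.93 (95% interval 3.47 to 4.48), which was 4.80 without barcodes with markers of other cell types. The whole-tumour value came from 9 barcodes, and 21 of its 35 UMIs were in the 2 fibroblast-marker barcodes. In CD9hi 402 barcodes held all 1399 UMIs, and 97.4% of them were in barcodes with Epcam under 500 CPM. By Epcam bin the CD9hi level was 21.4 CPM under 500, 0.728 CPM at 500 to 1000, 1.24 CPM at 1000 to 2000 and 0.0939 CPM (2 UMIs) at 2000 or more. The drop thus fell between the lowest Epcam bin and all others, with intervals that do not meet (20.3 to 22.6 CPM against at most 1.90 CPM). Along Vim the CD9hi level was 0.844, 5.36, 13.7 and 12.9 CPM, and Vim-high barcodes held 13.3 CPM against 0.844 CPM (7 UMIs) in Vim-low ones, a log2 ratio of 3.88 (95% interval 2.93 to 5.29). That ratio was 1.06 between the highest and lowest quartile by Vim and 2.56 as a mean CPM of single barcodes. Among CD9hi barcodes with Epcam under 1000 CPM, those with Vim under 2000 CPM held 13.3 CPM and those above held 17.1 CPM.

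Mmp2 was also the member that followed Prrx1 most closely. Along 0, 1, 2 to 3 and at least 4 Prrx1 UMIs in CD9hi it stood at 2.50, 12.97, 44.8 and 35.5 CPM. Of its UMIs 84.9% were in the 1100 barcodes with a Prrx1 UMI, which are 21.6% of kept barcodes. Fibroblast markers moved along the same bins, with 7 of 8 higher at 4 or more Prrx1 UMIs than at 0 and a summed level of 40.5, 171, 319 and 356 CPM. Col1a1 stood at 14.5, 41.6, 139 and 119 CPM, and Lum at 0, 0.147, 17.5 and 5.83 CPM. Dpt, the exception, was at 0.0474, 0, 1.93 and 0 CPM. Pericyte and smooth muscle markers also moved along them, with 5 of 6 higher and a summed level of 31.3, 167, 158 and 269 CPM. Pdgfrb stood at 0.391, 1.92, 11.7 and 24.1 CPM and Acta2 at 9.76, 18.6, 60.3 and 81.6 CPM, while Myh11 had 1 UMI over the 4 bins together. The summed fibroblast markers were 0.00405% of UMIs without Prrx1 and 0.0356% with at least 4, against at least 0.5% in each of the 7 fibroblast-marker barcodes. Those 7 held 139 of the Mmp2 UMIs, at 858 CPM, and the 259 barcodes with at least 0.05% fibroblast markers held 48.2%. Without these 259 the gradient was 1.83, 11.3, 21.1 and 20.2 CPM, so it was present at a lower height. The CD9hi total then fell to 6.38 CPM, under the mean level needed for a call against whole tumour (0.304 CPM). The part of pericyte and remaining fibroblast signal in this gradient was not tested.

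Mmp14, the membrane-type activator of pro-Mmp2, had a mean CPM of at least 5 in all 7 comparisons. Mmp2 did not reach that level in the Vim and Epcam comparisons of whole tumour. In CD9hi Mmp14 measured 91.9 CPM, and in whole tumour 51.3 CPM (log2 ratio 0.84, 95% interval 0.78 to 0.91). In CD9hi its Vim bins lay between 80.9 and 98.7 CPM and its Epcam bins between 78.2 and 99.5 CPM, with no call in either comparison (log2 ratios 0.20 and 0.13). In whole tumour it ran from 42.1 CPM at the lowest Vim bin to 67.9, 78.0 and 63.4 CPM, and from 31.7 CPM at the lowest Epcam bin to 71.6 CPM at the highest. The acinar-marker barcodes carry 7.20 CPM, and once barcodes with markers of other cell types were left out the whole-tumour ratios dropped under 1.5-fold (log2 0.48 for Vim, 0.47 for Epcam). Of the 4 groups by Epcam above or below 1000 CPM and Vim above or below 2000 CPM, the highest whole-tumour level, 90.6 CPM, was in the 220 barcodes high in both, near the 97.3 CPM of the same group in CD9hi.

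The genes of the activation complex met in few barcodes, and Mmp2 itself was found in few. With every barcode thinned to 5000 UMIs, Mmp2, Mmp14 and Timp2 were found together in 87 of 4978 CD9hi barcodes (1.75%) and in 1 of 2385 whole-tumour barcodes. After this thinning an Mmp2 UMI was present in 173 CD9hi barcodes (3.48%, against 7.89% before it) and in 2 whole-tumour barcodes. Thus 87 of the 173 CD9hi barcodes with Mmp2 also held Mmp14 and Timp2. In CD9hi an Mmp2 UMI was present in 5.45% of barcodes with Mmp14 (95% interval 4.42 to 6.64) and in 2.46% of those without (1.96 to 3.05). Barcodes with Timp2 were 4450 of the 4978 in CD9hi and 1200 of the 2385 in whole tumour. Mmp14 was present in 34.4% of CD9hi barcodes with Timp2 (95% interval 33.0 to 35.8) and in 29.9% of those without (26.0 to 34.0), which overlap. In whole tumour these shares were 25.4% (23.0 to 28.0) and 16.1% (14.1 to 18.3). There, the 359 thinned barcodes with acinar markers held Mmp14 in 2.79% and Timp2 in 15.6%. The part of acinar-marker barcodes in these 2 shares was not tested.

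Timp1, a secreted inhibitor, had the widest range of the 3 along Vim. In whole tumour it stood at 89.5, 313, 866 and 1524 CPM from the lowest to the highest Vim bin, and in CD9hi at 262, 911, 1359 and 1530 CPM. Each step is larger than its counting interval, and the libraries converge in the highest bin. The log2 ratios of Vim-high to Vim-low barcodes were 3.60 (95% interval 3.54 to 3.66) and 2.47 (2.41 to 2.53). Timp1 declined along Epcam from 1690 to 525 CPM in CD9hi, and from 682 to 228 CPM in whole tumour, where 199 CPM at 1000 to 2000 was the lowest bin. The share of barcodes with a Timp1 UMI did not follow in whole tumour. After thinning to 5000 UMIs it was 45.1%, 48.2%, 33.1% and 46.8% from the lowest to the highest Epcam bin. Acinar markers were present in 241 of the 497 barcodes of that lowest Epcam bin. The whole-tumour Epcam ratio went from -1.31 to -1.98 (log2) without barcodes with markers of other cell types. Thinned to 5000 UMIs, a Timp1 UMI was present in 26.8% of whole-tumour barcodes with Vim under 500 CPM and in 95.03% of those with at least 5000 CPM. The share in acinar-marker barcodes (median depth 17638.5 UMIs, against 17686 for the library) was 15.0%, and both of the former lie above it.

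Timp2, which both inhibits and takes part in Mmp2 activation, followed the same order over a smaller range. It measured 106, 291, 554 and 725 CPM along Vim in whole tumour and 275, 515, 704 and 810 CPM in CD9hi. Along Epcam it went from 835 to 411 CPM in CD9hi and from 349 to 203 CPM in whole tumour, where the log2 ratio of -0.69 lost its call at -0.53 with no filter on barcodes and was -1.37 without barcodes with markers of other cell types. Over the 23 groups of Vim and Epcam bins with at least 50 barcodes, Timp2 was the gene most like Timp1 of 5509 compared (Pearson r of log2(CPM + 1) 0.98, a description of groups that share libraries and depth).

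Timp3, the matrix-bound inhibitor, was held by a minority of barcodes. The 10% of barcodes with the most Timp3 UMIs held 81.7% of them in CD9hi and 84.6% in whole tumour, whereas the same share of barcodes held 29.5% of Timp2 UMIs in CD9hi. Along Vim it measured 28.2, 37.7, 71.4 and 131 CPM in whole tumour and 23.2, 22.4, 80.7 and 104 CPM in CD9hi. Along Epcam the CD9hi library peaked at 130 CPM in the 500 to 1000 bin, from 89.4 CPM below it, and ended at 26.2 CPM, so the lowest Epcam bin was not the highest for Timp3. The log2 ratio of -1.91 between the fixed Epcam groups became -0.54, under the call, between the highest and lowest quartile. In whole tumour it fell at each Epcam step, at 91.4, 52.1, 40.5 and 18.9 CPM. Where both Vim groups of whole tumour had Epcam of at least 1000 CPM the Vim ratio shrank from 1.70 to 0.57 (log2) and was no longer called. In CD9hi barcodes with Malat1, a nuclear RNA, under 2000 CPM, Timp3 was at 5.22 CPM against 91.3 CPM in the others, and 655 barcodes (12.9%) were of this kind.

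**Figure D2:**
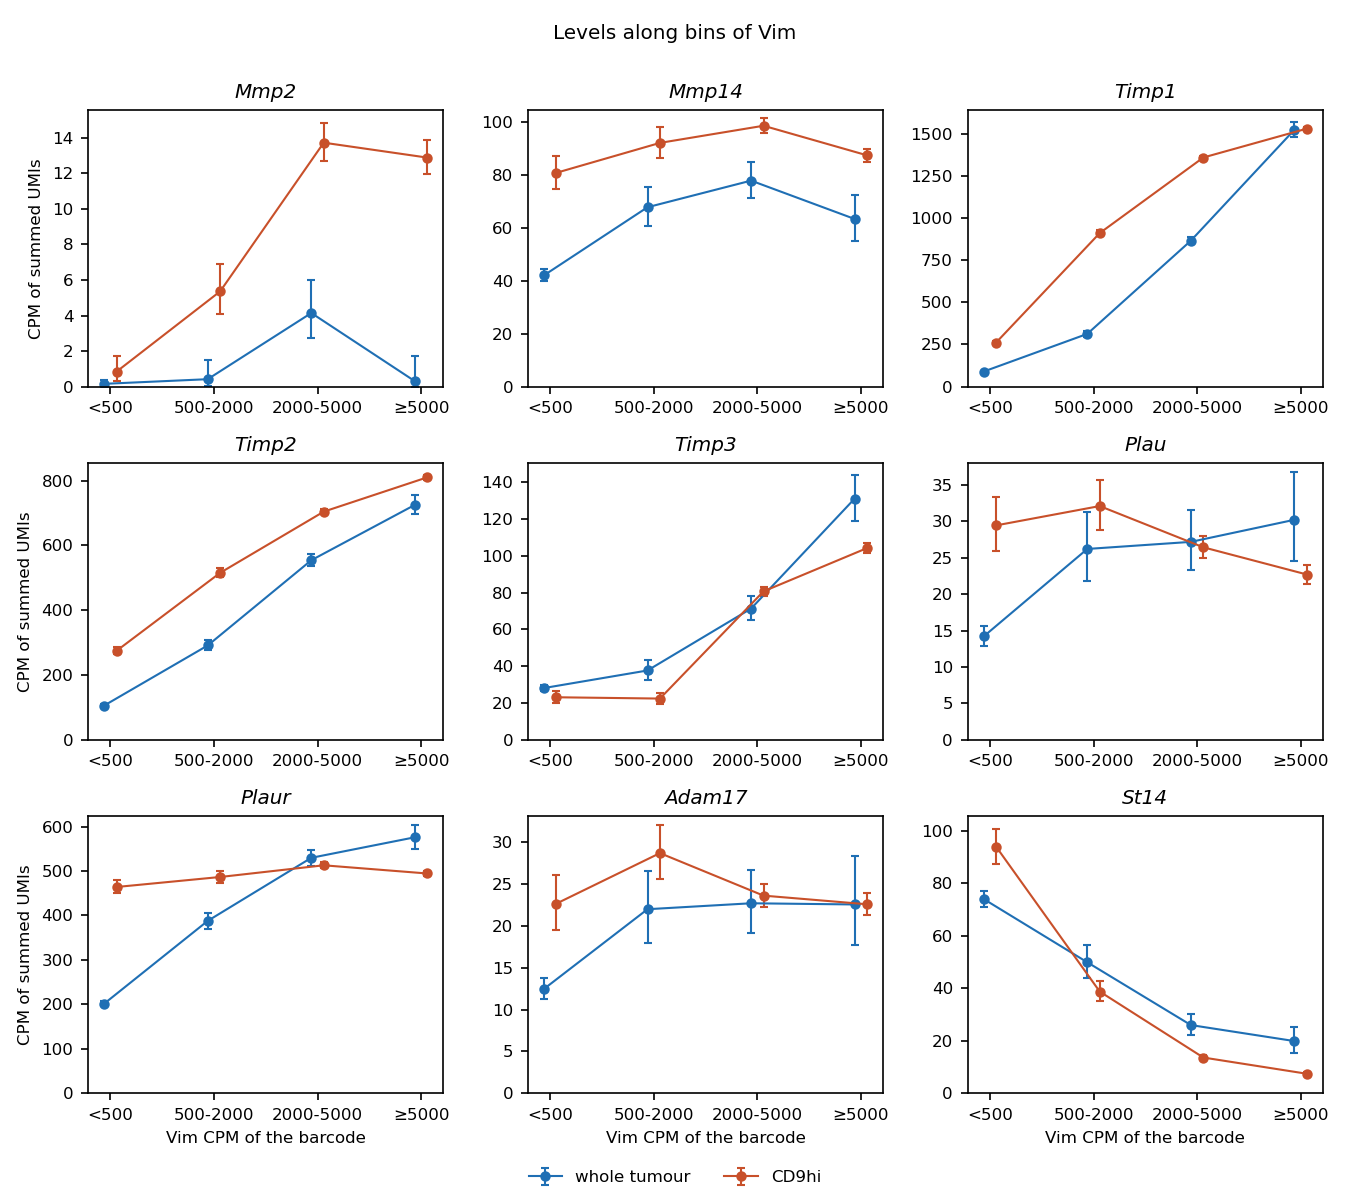
CPM of summed UMIs (y axis, from 0, own scale per gene) in 4 bins of Vim CPM (x axis) for the whole-tumour and CD9hi libraries; bars are exact Poisson 95% intervals. Timp1 and Timp2 climb at every step in both libraries, St14 descends, and Plau goes from 14.2 to 30.2 CPM in whole tumour and from 29.4 to 22.7 CPM in CD9hi.

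Plau, which encodes urokinase, was higher in Epcam-high barcodes of both libraries. It stood at 7.16, 10.8, 12.7 and 29.6 CPM along the Epcam bins of whole tumour and at 21.2, 25.6, 29.6 and 34.9 CPM in CD9hi. The log2 ratios of Epcam-high to Epcam-low barcodes were 1.78 (95% interval 1.4998 to 2.08) and 0.65 (0.53 to 0.78), the latter 0.58 and under the call as a mean CPM of single barcodes. Without barcodes with markers of other cell types the whole-tumour bins were 13.2, 13.2, 14.2 and 29.8 CPM and the ratio 1.17, so that only the highest bin stood apart. Along Vim the log2 ratio was 0.99 (0.77 to 1.21) in whole tumour, called higher. In CD9hi it was -0.27 (-0.46 to -0.07), of opposite sign but within 1.5-fold and not called. The difference between the libraries has no test. In whole tumour the group high in both genes had the highest level, 44.8 CPM, against 16.6 CPM with Vim alone, 19.6 CPM with Epcam alone and 3.08 CPM with neither, a group of 515 barcodes that includes 300 with acinar markers. Acinar-marker barcodes as a whole held 1.94 CPM. In CD9hi the level was 34.4 CPM with Epcam high and Vim low and 31.4 CPM with both high, and these intervals overlap (31.4 to 37.5 and 29.2 to 33.7 CPM).

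Plaur, the urokinase receptor gene, was abundant in most barcodes of both libraries. In CD9hi it measured 499 CPM, and in whole tumour 293 CPM (log2 ratio 0.77, 95% interval 0.74 to 0.79), and the ratio was under the call at 0.53 without barcodes with markers of other cell types. Acinar-marker barcodes held 17.3 CPM. Along Vim it ran from 201 to 388, 530 and 576 CPM in whole tumour but stayed between 464 and 513 CPM in CD9hi. Along Epcam in CD9hi it was lowest in the lowest bin, 398 CPM, and highest in the next, 666 CPM, then 627 and 559 CPM. Barcodes with Malat1 under 2000 CPM made up 24.6% of that lowest bin and 1.17%, 1.20% and 0.792% of the others, and Plaur was at 214 CPM in such CD9hi barcodes against 534 CPM in the rest. Without them the ratio of fixed Epcam groups was 0.15 in place of 0.29 (log2). The comparison of fixed Epcam groups gave no call in either case, whereas the highest against the lowest quartile of barcodes by Epcam gave 1.01. In whole tumour the Epcam ratio was 0.18 with all barcodes and -0.51 without those of other cell types, so its direction there differed with and without those 400 barcodes, 380 of them with acinar markers.

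The receptor and its ligand differed in how often they met. In thinned whole-tumour barcodes Plau was present in 10.7% of those with Plaur (95% interval 9.10 to 12.5) and in 5.14% of those without (3.90 to 6.62). In thinned CD9hi barcodes the shares were 11.03% (10.1 to 12.03) and 11.3% (9.35 to 13.6), which overlap. In the 359 thinned whole-tumour barcodes with acinar markers, Plaur was present in 6.41% and Plau in 1.11%. Their part in the whole-tumour shares was not tested.

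**Figure D3:**
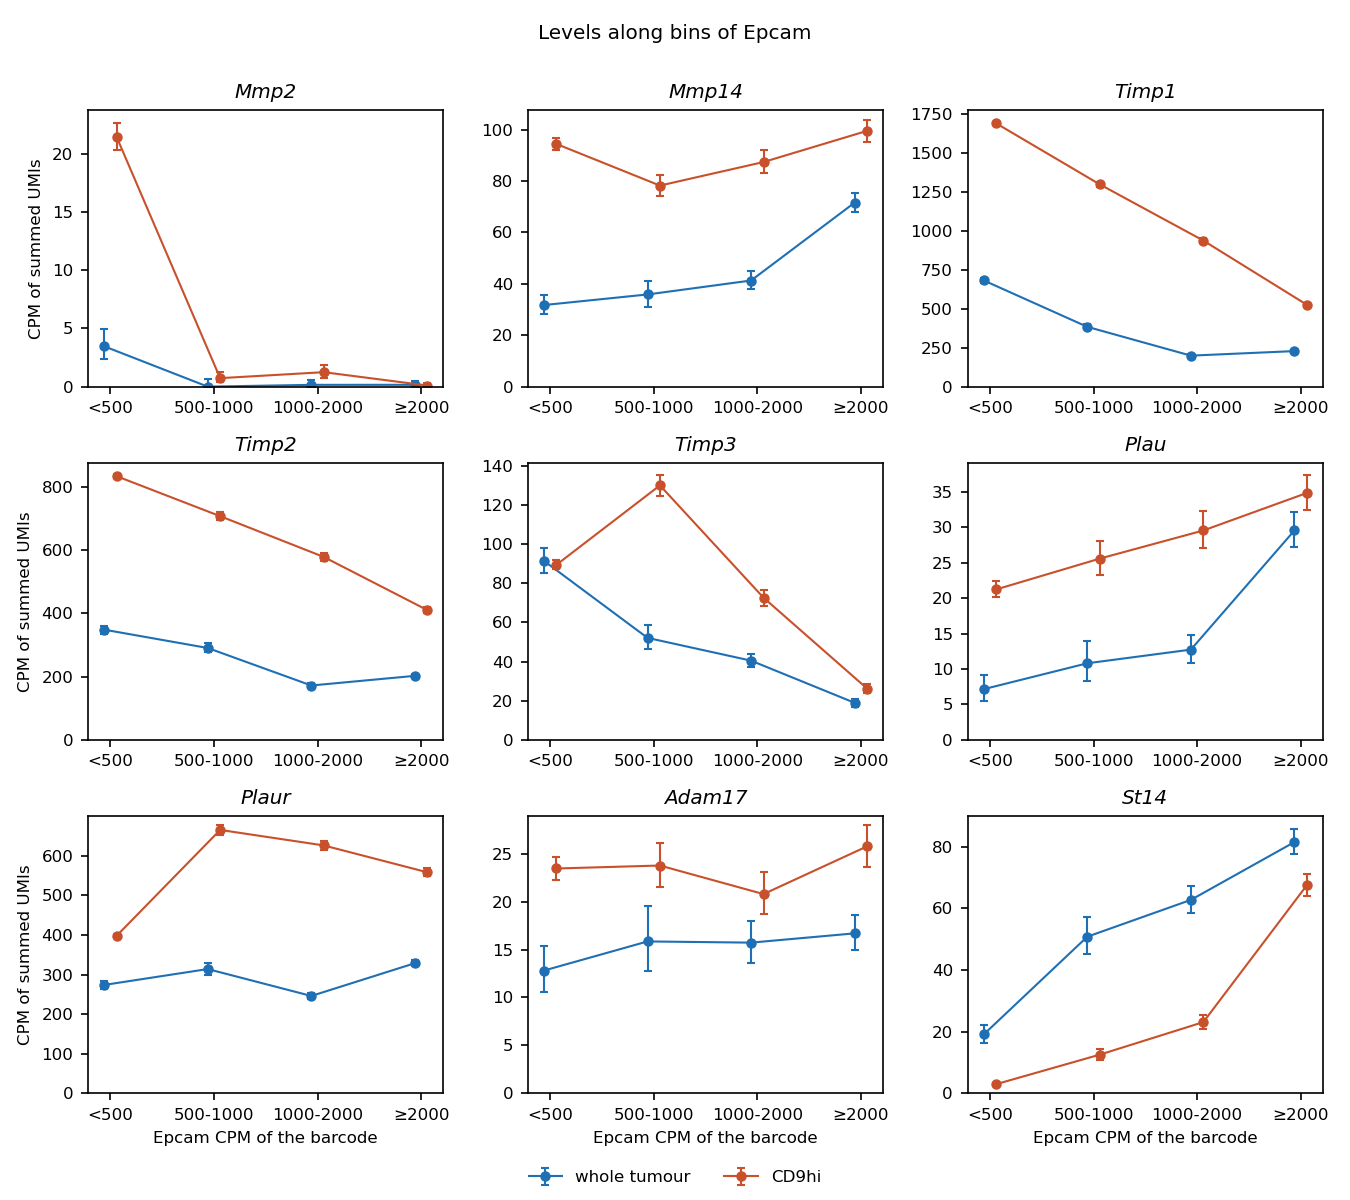
CPM of summed UMIs (y axis, from 0, own scale per gene) in 4 bins of Epcam CPM (x axis) for both libraries; bars are exact Poisson 95% intervals. Mmp2 is at 21.4 CPM in the lowest CD9hi bin and at most 1.24 CPM in the other bins of that library, Plau and St14 climb in both libraries, and Plaur in CD9hi peaks at 666 CPM in the 500 to 1000 bin.

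Adam17, which encodes the tumour necrosis factor sheddase, varied little across the CD9hi groups. It was 23.6 CPM there, with Vim bins between 22.6 and 28.7 CPM, Epcam bins between 20.8 and 25.8 CPM and Prrx1 bins between 22.2 and 25.1 CPM. None of the 3 CD9hi comparisons called it (log2 0.02 for Vim, 0.13 for Epcam and -0.10 for Prrx1), and each of the 3 intervals includes 0. In whole tumour it measured 12.5 CPM at the lowest Vim bin and 22.0, 22.7 and 22.6 CPM in the others. The library ratio of 0.59 just passed 1.5-fold, and it was under the call at 0.57 with no filter on barcodes, 0.54 without Malat1 under 2000 CPM and 0.45 without barcodes with markers of other cell types; acinar-marker barcodes held 6.37 CPM. Its uncalled Epcam ratio in whole tumour turned from 0.25 to -0.25 without those barcodes of other cell types.

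St14, which encodes matriptase, ran opposite to the inhibitors. Whole tumour had 60.9 CPM and the CD9hi library 18.7 CPM (log2 ratio -1.70, 95% interval -1.78 to -1.62). Along Vim it declined at every step, at 74.0, 49.9, 25.9 and 19.8 CPM in whole tumour and 93.9, 38.7, 13.6 and 7.37 CPM in CD9hi. Along Epcam it went from 19.0 to 81.6 CPM in whole tumour and from 2.90 to 67.6 CPM in CD9hi. With Epcam high and Vim low the CD9hi library was not lower, at 82.0 CPM against 78.1 CPM in whole tumour. These intervals overlap (77.4 to 86.8 and 74.9 to 81.5 CPM). Epcam itself was at 3911 CPM in that CD9hi group and 2640 CPM in the whole-tumour group, so they are not at like Epcam. CD9hi was lower with both genes high (27.2 against 44.8 CPM), with Vim alone (5.01 against 9.35 CPM) and with neither (4.90 against 46.6 CPM). Acinar-marker barcodes held 40.7 CPM, so its whole-tumour level is not only from Epcam-high barcodes.

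St14 and Timp1 also parted at the level of barcodes. After thinning, St14 was present in 7.01% of CD9hi barcodes with a Timp1 UMI (95% interval 6.27 to 7.81) and in 17.3% of those without (14.5 to 20.5). In whole tumour the shares were 21.8% (19.3 to 24.4) and 31.0% (28.6 to 33.5). The genes most like St14 across the 23 groups were Cldn7 (r = 0.99), Spint1 (0.97), which encodes its inhibitor, and Esrp1 (0.97), an epithelial splicing regulator.

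By Prrx1, the members divided into 1 that was higher, 2 that were lower and 6 within 1.5-fold. The comparison set 821 CD9hi barcodes with at least 2 UMIs against 3992 with 0. Whole tumour had 7 Prrx1 UMIs in 6 barcodes and was not compared. The groups also differed in Epcam, at 1455 CPM with 0 Prrx1 UMIs against 80.6 CPM with 2 to 3 and 65.9 CPM with at least 4. Plaur went from 583 to 344, 307 and 277 CPM along 0, 1, 2 to 3 and at least 4 UMIs (log2 ratio -1.02, 95% interval -1.06 to -0.99), and the ratio was -1.04 without barcodes with Malat1 under 2000 CPM. Within barcodes with Epcam under 500 CPM it still went from 520 to 323, 300.3 and 271 CPM. Epcam itself stood at 169, 45.0, 27.8 and 21.6 CPM along those bins, and the part of that difference was not tested. St14 stood at 25.9 CPM without Prrx1 and at 1.47, 2.04 and 1.35 CPM with it. Within Epcam under 500 CPM it was at 5.33 CPM without Prrx1 and at most 1.01 CPM in each bin with it, too low for a call.

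The inhibitors, by contrast, lay within 1.5-fold between the Prrx1 groups. Timp1 was 1222 CPM without Prrx1 and 1497 CPM with at least 2 UMIs, and Timp2 was 664 and 798 CPM. Timp3 gave the least settled value: 90.4 CPM without Prrx1 and 31.6, 74.1 and 65.7 CPM with 1, 2 to 3 and at least 4 UMIs. Its log2 ratio was -0.40 with all kept barcodes, -1.02 without barcodes with markers of other cell types, where the 7 fibroblast-marker barcodes held 687 of 9788 Timp3 UMIs, and 0.84 when barcodes were thinned to 5000 UMIs before Prrx1 was counted (207 against 4424 barcodes). It was also called lower, at -0.99 with Epcam under 500 CPM in both groups, -1.12 without the 259 barcodes with fibroblast markers and -1.40 with Vim of at least 5000 CPM in both. Barcodes with Malat1 under 2000 CPM, where Timp3 was at 5.22 CPM, made up 10.4%, 38.7%, 27.4% and 8.81% of the 4 Prrx1 bins in order. Their part in the low value at 1 UMI was not tested. Mmp14 lay within 1.5-fold too, but after the same thinning it was at 172 against 89.7 CPM and called higher. Depth moved with the bins, from a median of 20883.5 UMIs without Prrx1 to 36206 with at least 4. The thinning also changed which barcodes counted as positive, 207 in place of 821. It therefore did not compare the same groups, and the part of depth in these ratios was not tested.

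**Figure D4:**
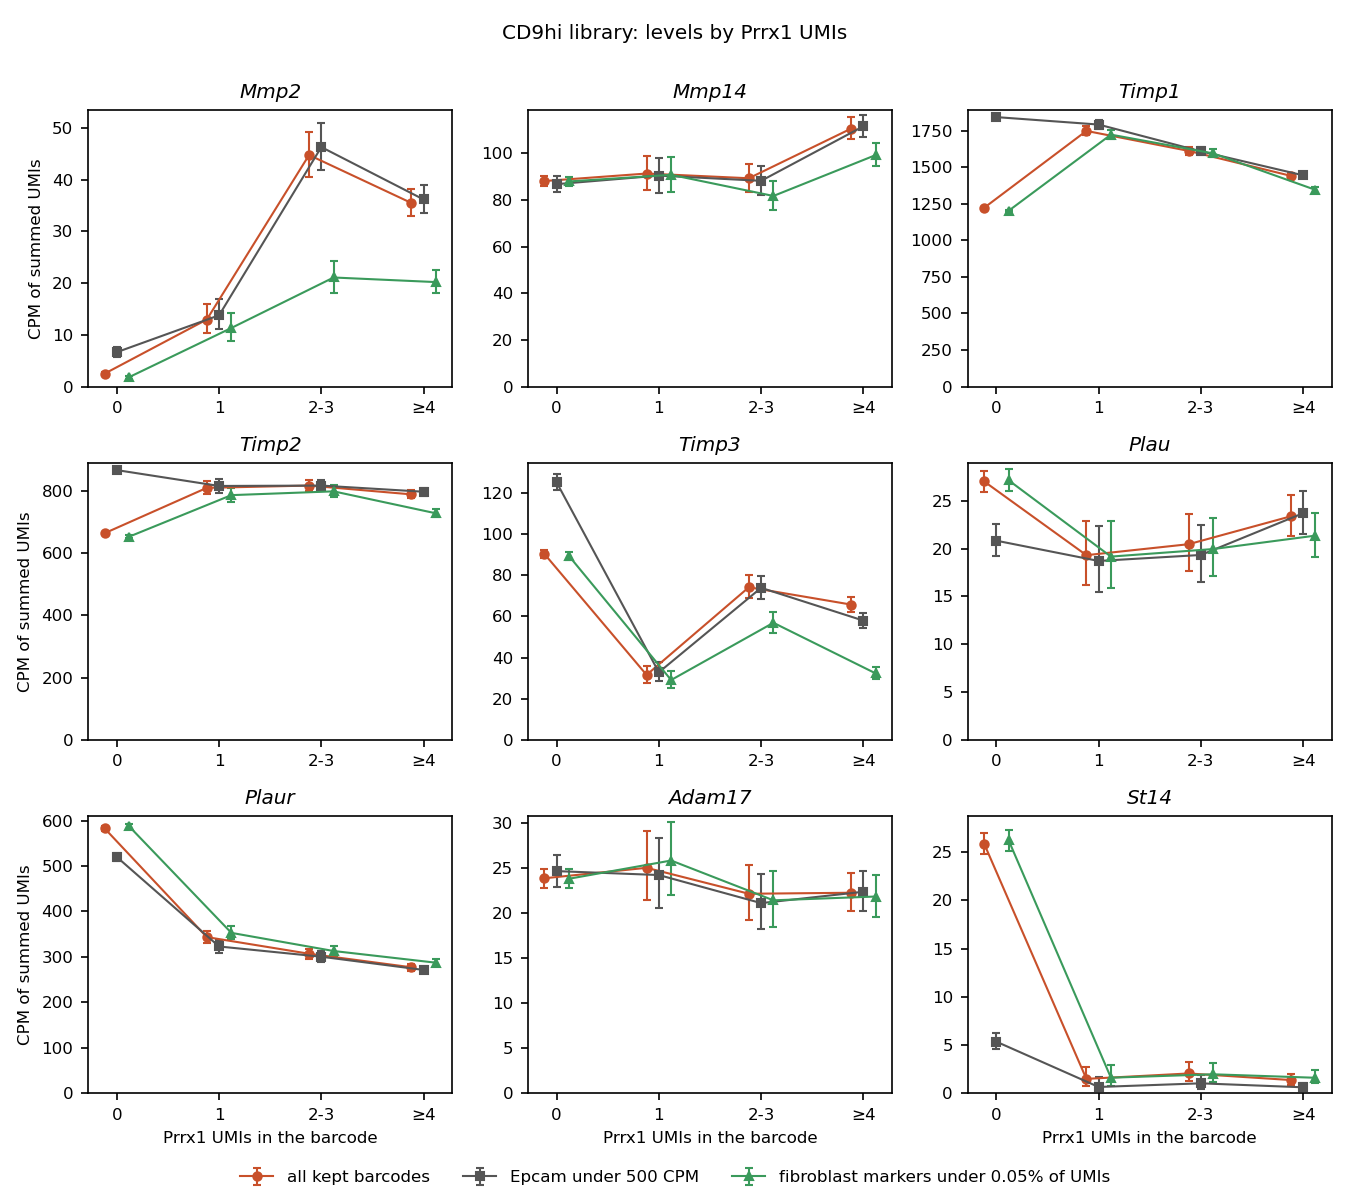
CPM of summed UMIs (y axis, from 0) by Prrx1 UMIs per barcode (x axis) in CD9hi, for all kept barcodes, those with Epcam under 500 CPM and those with fibroblast markers under 0.05% of UMIs; bars are exact Poisson 95% intervals. Mmp2 is higher in every bin with Prrx1 than without it in all 3 sets, at 35.5, 36.2 and 20.2 CPM in the last bin, and Plaur descends in all 3.

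The wider families showed which other proteases moved along the same axes, and the named genes are the extremes of each list. The Prrx1 groups differ in Epcam, as given above, and the part of Epcam in their ratios below was not tested. Among 9 measured matrix metalloproteinases, members included, 4 were higher in CD9hi (17.1% of all measured genes) and 4 lower (13.4%). Mmp10 (log2 2.37), which encodes a stromelysin, was among the higher, while Mmp7 (-4.44), which encodes epithelial matrilysin, was at 75.7 CPM in whole tumour against 3.48 CPM. Within both libraries Mmp7 was also far lower in Vim-high barcodes (-7.35 and -7.53), and Mmp3, a stromelysin gene, was higher (4.11 and 4.64). With Prrx1, Mmp3 (61.8 against 2.12 CPM) and Mmp9 (14.1 against 0.759 CPM), the other gelatinase gene, were higher and Mmp10 was lower (5.61 against 13.6 CPM).

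Of 11 measured genes of the plasminogen system, members included, 9 were higher in CD9hi (17.1% of all genes) and 0 lower (13.4%), with a median log2 ratio of 0.91 against 0.13 over all genes. Serpinb2, which encodes a plasminogen activator inhibitor, was at 11.03 CPM against 0.108 CPM (5 UMIs), and Lrp1, which encodes an uptake receptor for complexes of proteases and inhibitors, was at 46.5 against 13.7 CPM. Among barcodes with Vim of at least 2000 CPM and Epcam under 1000 CPM, 2 of 11 were higher, Serpinb2 (4.10) and Lrp1 (0.61), against 9.93% of all genes. With Prrx1, 5 of 12 were higher (16.6% of all genes) and 3 lower (14.7%): Serpinb2 (36.8 against 1.85 CPM) and the collagen receptor gene Mrc2 (11.4 against 0.759 CPM) were higher, and Plat, the tissue-type activator gene, was lower (213 against 368 CPM) together with Plaur.

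Among the membrane serine proteases and their inhibitors, 7 of 12 measured genes, St14 included, were lower in CD9hi (13.4% of all genes) and 3 higher (17.1%). Tmprss4 (37.1 CPM in whole tumour, 2.76 CPM in CD9hi), Prss8, which encodes prostasin (26.9 and 3.39 CPM), and Tmprss2 (16.1 and 2.05 CPM) went with St14. Htra1, a secreted serine protease gene, was at 47.6 and 166 CPM. In the Epcam comparison of CD9hi 8 of 10 were higher (14.6% of all genes) and 1, Htra1, was lower (10.1%). With Prrx1, Spint2, a matriptase inhibitor gene, stood at 38.9 CPM against 427 CPM, between groups that also differ in Epcam.

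Of 12 measured partners and substrates of Adam17, 4 were higher in CD9hi (17.1% of all genes) and 0 lower (13.4%). Ereg, which encodes the growth factor epiregulin, was at 60.0 against 24.6 CPM, and Frmd8 and Rhbdf2, whose products carry and stabilise the sheddase, were at 47.8 against 26.2 CPM and 28.2 against 17.4 CPM. With Prrx1, 2 of 13 were higher (16.6% of all genes) and 7 lower (14.7%); Tnf was at 2.24 against 35.4 CPM and Ereg had a log2 ratio of 0.99. The sheddase gene itself had no call in that comparison, as given above.

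Across the 23 groups of Vim and Epcam bins the nearest genes differed between members. Those of Mmp2 were Sparc (r = 0.90), Col3a1 (0.89) and Gpx8 (0.87), those of Mmp14 were Tpm4, Antxr2 and Mapre1 (each 0.98), and those of Plau were Pkp1 (0.97), Map4k4 (0.96) and Mast4 (0.96). Plaur was nearest to Igf1r, Pafah1b1 and Ier3 (each 0.99) and Adam17 to Tmx3, Atp6v0c and Mtfr1l (each 0.96). Timp3 had no close neighbour: Hspb1, the first, reached 0.73. These groups share 2 libraries, and the group of whole-tumour barcodes with Vim and Epcam under 500 CPM is 1 of them: Mmp14, Timp1, Timp2, Plau, Plaur and Adam17 had their lowest levels there, and acinar markers are common in it.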

How the data were processed

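Single-cell 3′ libraries were deposited as 1 matrix of UMI counts per library; the counts are raw whole numbers, per the file headers and values. The submitters' processing notes name Cell Ranger 7.0.0 and GRCm39, and the file headers name Cell Ranger 6.1.2; intron and strand settings are not given in the sources used here, which bears on Timp1 and Timp3, each inside a synapsin gene on the other strand. Barcodes were kept as stated; no doublet caller was run, and an alternative leaves out the deepest 5%. Counts were summed per group, 0.5 counts were added for log2 ratios, and exact Poisson, conditional binomial and Clopper-Pearson 95% intervals were computed (Python 3.11.15, scipy 1.17.1, numpy 2.4.6); the code was tested on simulated data. Shares used barcodes thinned to 5000 UMIs, leaving out 165 whole-tumour and 114 CD9hi barcodes below that. All 9 members are named; other genes are the 3 highest or 3 lowest of each list by log2 ratio, or the 3 most alike. Members and lists were chosen with earlier results of these data known. A further allele of the shared genotype and a gene of the plasminogen list are not reported here.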

Additional observations from a re-analysis of the deposited data

Results flagged for a closer look

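Plau had ratios of opposite sign in the libraries under the same contrast, called higher in whole tumour and within 1.5-fold, so not called, in CD9hi. Vim-high against Vim-low barcodes gave a log2 ratio of 0.99 in whole tumour (28.2 against 14.2 CPM) and -0.27 in CD9hi (24.4 against 29.4 CPM), and with 1 library each the difference was not tested. Without barcodes with markers of other cell types the values were 0.66 and -0.29. With Epcam of at least 1000 CPM in both groups, an alternative chosen after seeing the data, they were 1.32 and 0.04.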

How the results depend on the processing

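Of 367 values of called members recomputed under the alternatives, 345 kept their call, 22 lost it and 0 reversed; 12 values of uncalled members gained a call. In the comparison of libraries at high Vim and low Epcam, where 1 member was higher, 2 were higher with no filter on barcodes, with at most 10% mitochondrial UMIs, without the deepest 5% of barcodes, without barcodes with Malat1 under 2000 CPM and at Vim of at least 5000 CPM; the second was Mmp14, at 1.498-fold as reported. A mean CPM of at least 20 left 0 higher and 0 lower there, and 1 lower in the Prrx1 comparison, because Mmp2 and St14 then fall under the minimum. The mean CPM of single barcodes left 1 member higher with Epcam in CD9hi. Thinning to 5000 UMIs before Prrx1 was counted (207 against 4424 barcodes) gave 3 members higher with Prrx1: Mmp2, Mmp14 (0.94) and Timp3 (0.84). Thinning to 2000 UMIs in place of 5000 changed the number of members with a larger share of barcodes in the highest than the lowest Epcam bin from 7 to 4 in whole tumour and from 3 to 5 in CD9hi; the cause was not tested. Alternatives on Epcam within the Vim and Prrx1 comparisons and on fibroblast markers of at least 0.05% were chosen after seeing the data. No paired analysis was possible because each group is 1 library, and no replicate could be left out. Low counts limit Mmp2 in whole tumour (35 UMIs) and at high Epcam.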

Other observations

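Of 14 measured cathepsins, which are lysosomal proteases, and cystatins, their inhibitors, 5 were higher in CD9hi (17.1% of all genes) and 1 lower (13.4%). The cystatin gene Cst6 was at 27.0 against 3.54 CPM, while Ctse, a gastric-type aspartic protease gene, was at 249 against 629 CPM. Within CD9hi, 2 of 14 were higher with Vim (8.81% of all genes) and 3 lower (16.8%), near the shares over all genes, and Vim-high barcodes held less Ctse (174 against 995 CPM) and Ctsh (173 against 650 CPM) and more Cst6 (30.1 against 2.05 CPM). With at least 2 Prrx1 UMIs, Ctse was at 19.3 against 343 CPM and Ctsh at 42.0 against 315 CPM, between groups that also differ in Epcam.

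In CD9hi barcodes with Malat1 under 2000 CPM, Timp1 was at 1847 CPM against 1252 CPM in the others, and Timp3 was lower, as given above. Epcam was at 60.9 CPM in the former and 1175 CPM in the others, and the part of that difference was not tested.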
